A study of Rattus norvegicus with 10 samples.

Results

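The transcripts of 10 receptors for inhibitory neuropeptides were followed in the hippocampus of rats that had gone through status epilepticus and of sham controls. The set holds the neuropeptide Y (NPY) receptors Npy1r, Npy2r and Npy5r, the somatostatin receptors Sstr1, Sstr2, Sstr3 and Sstr4, the delta and kappa opioid receptors Oprd1 and Oprk1, and the galanin receptor Galr1. The members were chosen by name, as rows of the count matrix whose RefSeq transcript identifier maps to these rat symbols, and each of the 10 had 1 row among the 32041 rows of the matrix. All 10 passed the filter on low counts, and they are described here beside the 22447 features that were tested.

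All rats were adult males of the outbred Sprague-Dawley strain, matched for age between the groups, and all had been implanted under isoflurane and butorphanol with electrodes in the left lateral amygdala. The 5 sham rats (rats 1 to 5) received no current, and the 5 stimulated rats (rats 6 to 10) received pulse trains of 400 µA at 60 Hz for 30 min, extended by 10 min where status epilepticus did not begin, and diazepam at 20 mg/kg, repeated at a lower dose where needed, to end the status. The study reports that all stimulated rats it enrolled had spontaneous seizures, seen on video EEG in the weeks before sampling. After 3 months a piece with CA3 and dentate gyrus was cut from the left hippocampus, which the sample labels call dorsal. Cell types are mixed in it, so that fewer cells of a type and less RNA per cell cannot be told apart. Since the study's methods list fewer stimulated rats than the labels, every labelled sample was kept and each was left out in turn.

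NPY, somatostatin, the enkephalins, the dynorphins and galanin are released from dense-core vesicles, mostly by interneurons, granule cells or afferent fibres, and act on seven-transmembrane receptors that couple to G proteins of the Gi/o class. These receptors lower cyclic AMP, open inwardly rectifying potassium channels and close presynaptic calcium channels, and several of them restrain glutamate release in the hippocampus. NPY, somatostatin, the dynorphins and galanin are known as endogenous anticonvulsants, and mossy fibres of granule cells are known to begin NPY synthesis after seizures.

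The libraries held from 13552309 to 24086059 aligned counts in sham rats and from 15586870 to 21642792 in stimulated rats, and the share of reads left unaligned was from 32.8 to 37.1% in sham and from 32.0 to 45.1% in stimulated rats. Levels are given as CPM, which scales counts for the size of each library, and were not divided by transcript length, so levels were compared between rats and not between genes. The piece carried transcripts of the dentate granule cell regulator Prox1 (from 22.3 to 35.9 CPM in the sham group and from 21.3 to 52.0 CPM after stimulation) and of the CA3-enriched kainate receptor subunit Grik4 (138 to 160 CPM and 142 to 167 CPM). The granule cell markers Tdo2 and Dsp were not among the tested features, for want of either a matched row or enough counts. Stimulated rats were not alike in Fos, an immediate early gene induced by recent neuronal activity. It was counted at 106, 50.3 and 61.7 CPM in rats 7, 9 and 10, at 5.61 and 5.24 CPM in rats 6 and 8, and at 3.26 to 5.32 CPM in sham rats.

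In the quasi-likelihood test of edgeR, 0 of the 10 receptors and 0% of all 22447 features differed between the groups at the adjusted threshold of 0.05. The study's own edgeR test, with fewer stimulated rats by its methods, listed genes as altered in this model, Fos and Npy among them. In the fit reported here, the adjusted p-values of the receptors lay between 0.414 and 0.889. Without adjustment, 2214 features (9.86%) had a p-value under 0.05. At this level, 1 receptor was lower in stimulated rats, Galr1, where 3.16% of all features were lower, and 0 were higher, where 6.7% of all features were higher. With 10 members these counts are near what the shares of all features amount to. The number of receptors with an unadjusted p-value under 0.05 was 4 without rat 6 (Npy1r, Npy5r and Sstr4 besides Galr1) and 3 without rat 8 (Npy5r and Sstr2 besides Galr1), where the share of all features rose as well, to 14% and 13.5%. It was 2 without rat 7 (with Sstr2), beside 7.37% of all features, and 2 without rat 9 (with Sstr3), beside 8.81%. The log2 fold change, stimulated over sham, was below 0 for 7 receptors and above 0 for 3, with a median of -0.22 beside 0.01 over all features.

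**Figure D1:**
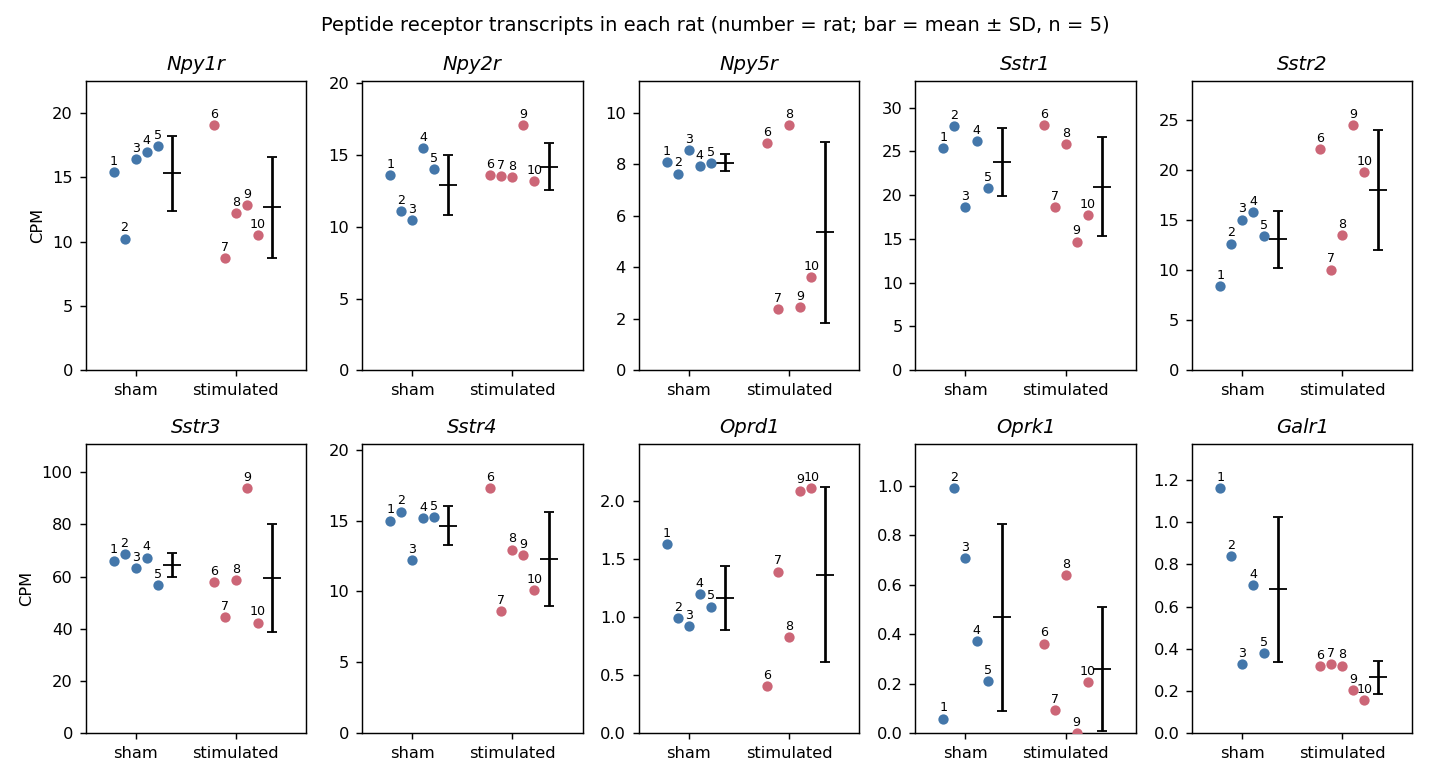
CPM of each receptor (vertical axis, from 0, with its own scale in each panel) in 5 sham and 5 stimulated rats. Each point is 1 rat with its number, and the bar is the mean ± SD of the group. Npy5r lies between 7.63 and 8.54 CPM in all sham rats and at 3.61 CPM or lower in stimulated rats 7, 9 and 10, while Npy2r overlaps between the groups.

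The NPY receptors were examined first. Npy1r encodes the Y1 receptor, a mostly postsynaptic receptor found on granule cell dendrites, Npy2r encodes the Y2 receptor, a presynaptic receptor that limits glutamate release, and Npy5r encodes the Y5 receptor. In the RefSeq annotation of GRCr8, Npy1r and Npy5r are direct neighbours on opposite strands, with no overlap of their annotated spans. The 250 bases before the annotated start of both genes are given because both lie in the stretch between these 2 genes and because the transcripts of both genes were at their lowest in the same rat. The sequences are from RefSeq (GRCr8), which is not the build used by the authors. Capitals mark TGACG or its reverse complement, the core of the cyclic AMP response element (CRE).

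Npy1r, chr16:27813388-27813637, minus strand: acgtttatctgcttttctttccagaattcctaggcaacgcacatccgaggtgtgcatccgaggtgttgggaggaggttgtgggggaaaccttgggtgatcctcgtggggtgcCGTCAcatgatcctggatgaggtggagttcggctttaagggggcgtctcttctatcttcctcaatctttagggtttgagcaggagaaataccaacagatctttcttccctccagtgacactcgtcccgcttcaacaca

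Npy5r, chr16:27821805-27822054, plus strand: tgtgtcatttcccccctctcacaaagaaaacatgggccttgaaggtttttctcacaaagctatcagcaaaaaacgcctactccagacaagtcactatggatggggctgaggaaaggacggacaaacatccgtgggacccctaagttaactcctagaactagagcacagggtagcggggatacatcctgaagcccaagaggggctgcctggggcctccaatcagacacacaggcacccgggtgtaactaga

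The Npy1r window held 1 such core, which ended 133 bases before the start, and the Npy5r window held 0. A core is present in 18.2% of the 33469 promoter windows of this length. The palindromic CRE with the letters TGACGTCA, which contains the core, and the AP-1 motif TGANTCA, searched on both strands, were absent from both windows. They occur in 1.59% and 6.34% of all windows.

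Npy5r (NM_012869) was uniform among sham rats and divided among stimulated rats. Sham rats 1 to 5 were at 8.09, 7.63, 8.54, 7.94 and 8.05 CPM, from 100 to 192 counts per rat. Stimulated rats 6 to 10 were at 8.82, 2.37, 9.51, 2.45 and 3.61 CPM. Rats 6 and 8 thus lay above every sham rat, by margins of the order of counting error. Rats 7, 9 and 10 lay below every sham rat, at 29.4, 30.4 and 44.9% of the sham mean. The group means were 8.05 ± 0.329 CPM in sham against 5.35 ± 3.53 CPM after stimulation (SD, n = 5 each). The log2 fold change was -0.60 (SE 0.349, 95% interval -1.35 to 0.15), which did not pass the test (adjusted p = 0.585, unadjusted p = 0.111). It was -0.91 without rat 8 (unadjusted p = 0.0162) and -0.87 without rat 6 (unadjusted p = 0.0260), and -0.41 without rat 9 (unadjusted p = 0.232) and -0.42 without rat 7 (unadjusted p = 0.211). The SD of log2 CPM was 0.0579 in sham and 0.958 in stimulated rats, a ratio of 16.5. The median ratio over all tested features was 1.37, and 0.0535% of them had a ratio at least as high. At 100 to 192 counts per sham rat, counting error alone gives an SD at least as large as the sham SD of 0.0579. The ratio and its rank therefore rest in part on an unusually tight sham group. The spread was singled out after the values were seen and was not tested.

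The rats with low Npy5r were those with high Fos and high Npy. Npy, the precursor of NPY, was at 192, 80.2 and 107 CPM in rats 7, 9 and 10, at 8.60 and 5.36 CPM in rats 6 and 8, and at 5.53 to 11.2 CPM in sham rats (log2 fold change 3.22, SE 0.748, adjusted p = 0.376). Of 12 immediate early genes, Fos included, 11 were higher at an unadjusted p-value under 0.05, beside 6.7% of all features. Their median log2 fold change was 1.91. No test was made of this coincidence, since it would require the rats to be grouped by a measured value. Markers of the cells that make up the tissue were read in the same rats. The mean log2 CPM of 10 general neuronal genes was 8.82 to 8.94 in sham rats. In stimulated rats 6 to 10 it was 8.91, 8.91, 8.88, 8.85 and 8.73, below the sham range in rat 10 alone. Across the 10 genes, 5 log2 fold changes were above 0 and 5 below. Of these genes, the neuronal nuclear marker Rbfox3 was at 183 to 227 CPM in sham rats and at 183, 124, 221, 155 and 178 CPM in stimulated rats 6 to 10, so that it was below the sham range in rats 7, 9 and 10 and marginally so in rat 6. The mean log2 CPM of 5 dentate granule cell genes was 5.27 to 5.74 in sham rats, 4.48 and 4.75 in rats 7 and 10, and 5.83 in rat 9, so that it was low in 2 of the 3 rats with low Npy5r and above the sham range in the other one. The genes of this score did not move together. In rat 7, C1ql2 was at 44.8 CPM (140 to 165 CPM in sham), while Prox1 and Calb1 were within their sham ranges. In rat 10, Calb1 was at 38.2 CPM (66.8 to 102 CPM in sham), while Prox1 and C1ql2 were within theirs. Trpc6, also in this score, went the other way, at 20.8 to 38.1 CPM in sham and 34.0 to 90.9 CPM in stimulated rats. The remaining gene, Plk5, is not shown by rat. C1ql2 in rat 7 and Calb1 in rat 10 thus do not by themselves make up the low scores. The mean log2 CPM of 11 interneuron genes was 4.94 to 5.11 in sham rats and 4.75, 4.71, 5.03 and 4.57 in rats 7 to 10, so that it was also low in rat 8, where Npy5r was high. That of 10 microglial genes was 4.35 to 4.81 in sham rats, 4.45 and 4.48 in rats 6 and 8, and 5.12, 5.03 and 4.82 in rats 7, 9 and 10, and was thus above the sham range in the rats with low Npy5r, in rat 10 only marginally. Gfap, the intermediate filament of astrocytes, was at 1327 to 1927 CPM in sham rats, at 1326 and 1375 CPM in rats 6 and 8, and at 6469, 2079 and 5396 CPM in rats 7, 9 and 10, a division of the stimulated rats like that of Npy5r. The mean log2 CPM of 9 astrocyte genes, Gfap included, did not divide them in this way. It was 8.05 to 8.29 in sham rats and 8.19, 8.07, 8.27, 8.41 and 8.39 in rats 6 to 10. The part of cell composition in the level of Npy5r was not tested.

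**Figure D2:**
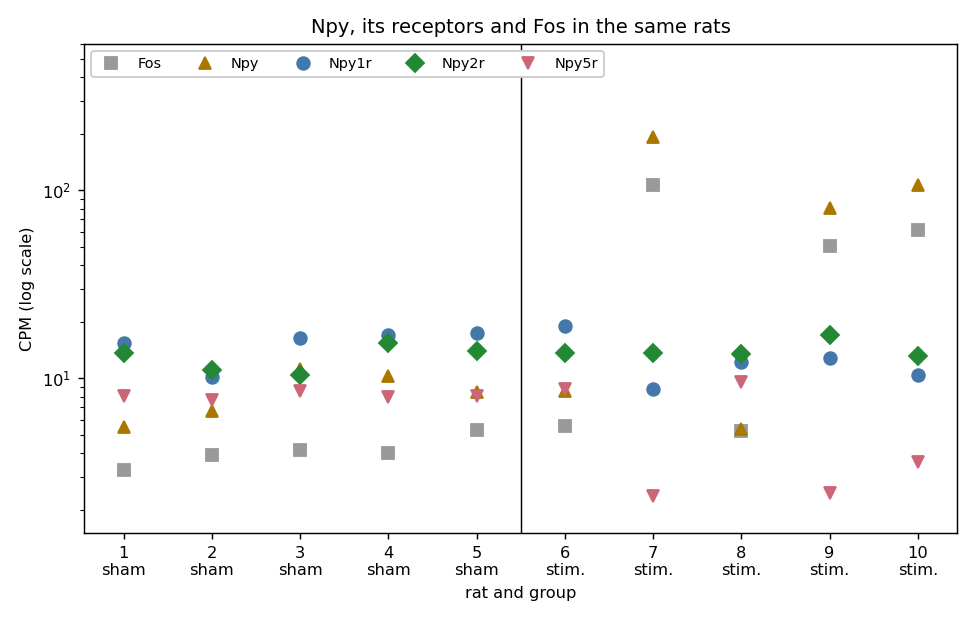
CPM of Fos, Npy and the receptors Npy1r, Npy2r and Npy5r on a log axis, in each of the 10 rats (horizontal axis, sham to the left of the line). In rats 7, 9 and 10, Fos and Npy are at 50.3 CPM or above and Npy5r is at 3.61 CPM or below, while Npy2r stays between 13.2 and 17.1 CPM in the stimulated rats.

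Npy1r (NM_001113357) was counted at 15.4, 10.2, 16.4, 17.0 and 17.4 CPM in sham rats 1 to 5 and at 19.0, 8.73, 12.2, 12.9 and 10.5 CPM in stimulated rats 6 to 10. Rat 7 lay below every sham rat and rat 6 above every sham rat, and the other stimulated rats lay within the sham range, which sham rat 2 alone extended downwards. The means were 15.3 ± 2.93 and 12.7 ± 3.91 CPM (SD, n = 5 each; log2 fold change -0.28, SE 0.202, 95% interval -0.71 to 0.16, adjusted p = 0.671). Without rat 6 the log2 fold change was -0.49 (unadjusted p = 0.0166, adjusted p = 0.242), and without rat 7 it was -0.18 (unadjusted p = 0.361).

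Npy2r (NM_023968) had the narrowest spread among stimulated rats on the log2 scale. It was counted at 13.6, 11.1, 10.4, 15.5 and 14.0 CPM in sham rats and at 13.6, 13.6, 13.5, 17.1 and 13.2 CPM in stimulated rats. Of the stimulated rats, 4 lay within the sham range and rat 9 lay above it. Npy2r did not pass the test (log2 fold change 0.13, SE 0.137, adjusted p = 0.783), and the 95% interval of -0.16 to 0.42 leaves room for moderate differences in either direction. Rats 7 and 10, the lowest stimulated rats for Npy1r and both below the sham range for Npy5r, were at 105 and 102% of the sham mean of Npy2r.

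The somatostatin receptors followed different patterns. Sstr2 encodes a somatostatin receptor that is widely held to carry much of the inhibition by somatostatin in the hippocampus. Among the 9 members with a promoter window in the reference table it was the only one with a full CRE. A CRE core alone was found in Npy1r and Sstr1, and the AP-1 motif in Npy2r alone. No link between these motifs and the levels was tested. The Sstr2 sequence is given because of its full CRE, in the same form as above, with the CRE in capitals.

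Sstr2, chr10:99163103-99163352, plus strand: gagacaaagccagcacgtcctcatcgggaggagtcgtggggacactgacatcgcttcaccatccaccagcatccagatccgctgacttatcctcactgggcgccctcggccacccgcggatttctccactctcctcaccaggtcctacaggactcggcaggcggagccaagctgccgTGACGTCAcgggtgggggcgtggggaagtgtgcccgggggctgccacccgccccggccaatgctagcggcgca

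The CRE ended 65 bases before the annotated start, and both CRE cores found in this window lay inside it. Sstr2 (NM_019348) was counted at 8.43, 12.7, 15.1, 15.8 and 13.5 CPM in sham rats 1 to 5. The stimulated rats 6 to 10 were at 22.2, 10.1, 13.5, 24.5 and 19.9 CPM. Rats 6, 9 and 10 were above every sham rat, and rats 7 and 8 lay within the sham range, so high Sstr2 was seen both in a rat with low Fos (rat 6) and in rats with high Fos (rats 9 and 10). The means were 13.1 ± 2.89 and 18.0 ± 6.05 CPM (SD, n = 5 each; log2 fold change 0.46, SE 0.232, 95% interval -0.04 to 0.96, adjusted p = 0.535, unadjusted p = 0.0677). It was the highest fold change of the set. Without rat 7 it was 0.60 (unadjusted p = 0.00788), and it was 0.32 without rat 9 (unadjusted p = 0.185) and 0.33 without sham rat 1 (unadjusted p = 0.172).

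Sstr3 encodes a receptor that is carried on the primary cilium of neurons. Its counts (NM_133522) were the highest of the set, from 820 to 1844 per rat. Sham rats were at 66.1, 68.6, 63.4, 67.3 and 56.7 CPM, and stimulated rats at 57.8, 44.3, 58.6, 94.1 and 42.3 CPM. Rats 7 and 10 lay below and rat 9 above every sham rat, and the means of 64.4 ± 4.73 and 59.4 ± 20.8 CPM (SD, n = 5 each) did not differ beyond this spread (log2 fold change -0.12, SE 0.180, adjusted p = 0.867). The SD of log2 CPM was 4.18 times as high in stimulated as in sham rats. Without rat 9 the log2 fold change was -0.34 (unadjusted p = 0.0122, adjusted p = 0.503), whereas it was -0.02 without rat 10 (unadjusted p = 0.927) and -0.04 without rat 7 (unadjusted p = 0.824). Rats 7 and 10 were also the rats with the lowest score of dentate granule cell genes and rat 9 the one with the highest. The genes of that score did not move together in rats 7 and 10, and the part of cell composition was not tested. Of 12 other tested genes of the primary cilium, 0 had an unadjusted p-value under 0.05, with a median log2 fold change of -0.04.

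Sstr4 and Sstr1 encode the remaining receptors of the set that bind somatostatin. Sstr4 (NM_013036) was counted at 15.0, 15.6, 12.2, 15.2 and 15.3 CPM in sham rats and at 17.3, 8.59, 13.0, 12.6 and 10.1 CPM in stimulated rats. Rats 7 and 10 were again below every sham rat, and rat 6 was above them. The log2 fold change was -0.25 (SE 0.170, 95% interval -0.62 to 0.11, adjusted p = 0.643), and without rat 6 it was -0.42 (unadjusted p = 0.0159, adjusted p = 0.239) and without rat 7 -0.16 (unadjusted p = 0.327).

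Sstr1 (NM_012719) was counted at 18.6 to 27.9 CPM in sham rats. Stimulated rats 6 to 10 were at 28.0, 18.6, 25.9, 14.7 and 17.8 CPM, with rats 9 and 10 below the sham range, rat 6 marginally above it, and rat 7 equal to the lowest sham rat at this rounding. The log2 fold change was -0.18 (SE 0.177, 95% interval -0.56 to 0.20, adjusted p = 0.769). Sstr5 had a count of 0 in all 10 rats, where 3 counts, the limit that a count of 0 allows, correspond to between 0.124 and 0.229 CPM.

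The somatostatin precursor Sst itself was counted at 38.6 to 47.5 CPM in the sham group and at 39.8, 44.4, 25.4, 79.6 and 130 CPM in stimulated rats 6 to 10. Its log2 fold change was 0.60 (SE 0.328, adjusted p = 0.560). Cort, which encodes cortistatin, a peptide with affinity for the same receptors, was at 0.894 CPM or less in every rat.

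The opioid receptors of the set were counted at low levels. Oprd1 (NM_012617), the delta receptor for enkephalins, which in the hippocampus is found mainly in parvalbumin interneurons, had from 9 to 41 counts per rat. Sham rats were at 1.63, 0.992, 0.925, 1.20 and 1.09 CPM and stimulated rats at 0.407, 1.39, 0.830, 2.09 and 2.12 CPM. Rats 9 and 10 lay above and rats 6 and 8 below every sham rat, and the log2 fold change of 0.23 (SE 0.394, 95% interval -0.62 to 1.07, adjusted p = 0.889) was within this spread. Summed over the groups, 113 counts in sham and 134 counts in stimulated rats correspond to 1.17 CPM (95% exact Poisson interval 0.963 to 1.40) and 1.36 CPM (1.14 to 1.61), intervals that cover counting error alone.

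Oprk1 (NM_017167), the kappa receptor for dynorphins, was counted 1, 13, 13, 9 and 5 times in sham and 8, 2, 10, 0 and 4 times in stimulated rats. Rat 9 lay below every sham rat, and the other stimulated rats lay within the sham range (log2 fold change -0.82, SE 0.782, 95% interval -2.50 to 0.86, adjusted p = 0.754). The count of 0 in rat 9 allows up to 0.153 CPM.

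The mu receptor Oprm1 was below the filter, with from 0 to 15 counts per rat in its most counted row, whereas Oprl1, the receptor of nociceptin, was counted at 20.4 to 36.8 CPM in sham and 15.7 to 27.6 CPM in stimulated rats (log2 fold change -0.16, SE 0.187, adjusted p = 0.806). The opioid precursors Penk and Pdyn did not pass the test either (log2 fold change -0.03 with SE 0.307 and adjusted p = 0.986 for Penk, and -0.39 with SE 0.342 and adjusted p = 0.734 for Pdyn). Pdyn, which encodes the dynorphins of granule cells, was at 64.1 and 63.5 CPM in rats 7 and 10, below the lowest sham rat at 139 CPM, and at 260 CPM in rat 9.

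Galr1 encodes a galanin receptor of Gi class that is linked to the anticonvulsant action of galanin in the hippocampus. It was the receptor with the lowest p-value of the set. Sham rats 1 to 5 had 20, 11, 6, 17 and 9 counts of Galr1 (NM_012958), which correspond to 1.16, 0.840, 0.327, 0.703 and 0.377 CPM. Stimulated rats 6 to 10 had 7, 7, 5, 4 and 3 counts, or 0.317, 0.325, 0.319, 0.204 and 0.155 CPM. All 5 stimulated rats were thus below all 5 sham rats, although sham rat 3 at 0.327 CPM and stimulated rat 7 at 0.325 CPM were almost equal, and the groups overlapped when library size alone was used for scaling. Groups that did not overlap with lower values after stimulation were found for 1 of the 10 receptors and for 0.597% of all features. In the opposite direction this was so for 0 receptors and for 0.695% of all features.

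The group means of Galr1 were 0.682 ± 0.345 and 0.264 ± 0.0792 CPM (SD, n = 5 each). The log2 fold change was -1.33 (SE 0.464, 95% interval -2.33 to -0.33), with an unadjusted p-value of 0.0127 and an adjusted p-value of 0.414. The summed counts of 63 in sham and 26 in stimulated rats correspond to 0.651 CPM (95% exact Poisson interval 0.501 to 0.833) and 0.265 CPM (0.173 to 0.388). The values of Galr1 were low in rats with low and with high Fos alike. The unadjusted p-value stayed between 0.00667 and 0.0468 when each rat was left out.

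Of the other galanin receptors, Galr2 was at 1.25 to 3.21 CPM in sham and 1.07 to 1.85 CPM in stimulated rats (log2 fold change -0.42, SE 0.287, adjusted p = 0.648), and Galr3 had at most 5 counts in any rat. Gal, the galanin precursor, was at 0.671 to 2.21 CPM in sham and 0.918 to 3.51 CPM in stimulated rats (log2 fold change 0.64, SE 0.410, adjusted p = 0.621). Npy4r had a count of 0 in all rats. Pyy, Ppy and Galp, which encode further ligands of these families, had at most 2 counts in any rat, and no row was matched to Npy6r.

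**Figure D3:**
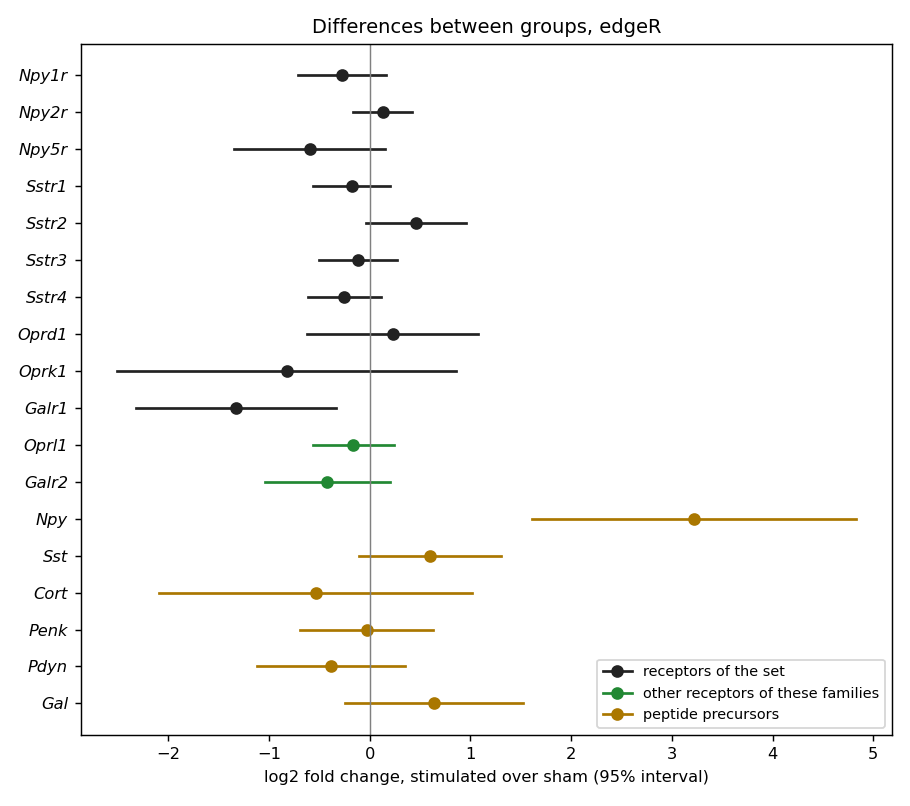
Log2 fold changes, stimulated over sham, with 95% intervals from edgeR's quasi-likelihood fit (horizontal axis) for the 10 receptors, 2 other receptors of these families and 6 peptide precursors. Of the receptors, Galr1 alone has an interval that does not include 0 (-2.33 to -0.33), and Npy, a precursor, has the highest value, 3.22.

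The receptors were then compared rat by rat with the sham range. Rat 7 had 5 receptors below the range of the sham rats (Npy1r, Npy5r, Sstr3, Sstr4 and Galr1) and 0 above it, where 26.8% of all features were below and 28.8% above their sham range in this rat. Rat 10 had 5 below (Npy5r, Sstr1, Sstr3, Sstr4 and Galr1) and 2 above (Sstr2 and Oprd1), beside 24.1% and 25.6% of all features. Rat 9 had 4 below (Npy5r, Sstr1, Oprk1 and Galr1) and 4 above (Npy2r, Sstr2, Sstr3 and Oprd1), beside 23.7% and 25.6%. Rat 6 went the other way, with 2 below (Oprd1 and Galr1) and 5 above (Npy1r, Npy5r, Sstr1, Sstr2 and Sstr4), beside 14.2% and 16.0% of all features. Rat 8 had 2 below (Oprd1 and Galr1) and 1 above (Npy5r), beside 17.6% and 17.7%. Of the 10 receptors, Galr1 alone was outside the sham range on the same side in all 5 stimulated rats.

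**Figure D4:**
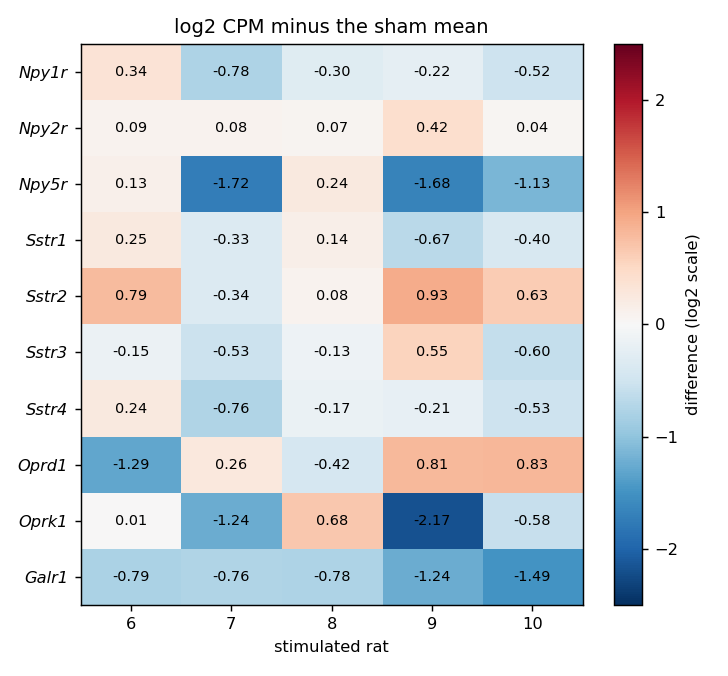
Difference of log2 CPM from the mean of the 5 sham rats (colour and number, log2 scale) for each receptor (rows) in each stimulated rat (columns). Npy5r is at -1.72, -1.68 and -1.13 in rats 7, 9 and 10 and at 0.13 and 0.24 in rats 6 and 8, and Galr1 is below 0 in all 5.

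The SD of log2 CPM was higher in stimulated than in sham rats for 8 of the 10 receptors and for 69.5% of all features. The ratio was 3.07 for Oprd1, 2.67 for Sstr4, 1.58 for Sstr1, 1.50 for Sstr2 and 1.32 for Npy1r, and was below 1 for Npy2r (0.649) and Galr1 (0.509). For the low receptors Galr1 and Oprk1 the spread includes a large part of counting error, and the sham SD of Npy5r is no larger than counting error.

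Other receptors and signalling genes of the same kind were taken from lists drawn up with earlier results of these data known. Of 32 tested receptors for other neuropeptides, 0 had an adjusted p-value under 0.05. At an unadjusted p-value under 0.05, 7 were higher and 2 lower, where 6.7% of all features were higher and 3.16% lower. The median log2 fold change of the 32 receptors was 0.15, beside 0.01 over all features. The lowest p-values among them belonged to the orexin receptor Hcrtr1 (1.01 ± 0.447 CPM in sham against 6.96 ± 7.77 CPM after stimulation, log2 fold change 2.74, SE 0.698, adjusted p = 0.376), to Calcrl, which encodes the receptor subunit shared by CGRP and adrenomedullin (4.66 ± 0.632 and 7.03 ± 1.28 CPM, log2 fold change 0.59, SE 0.166, adjusted p = 0.380), and to the oxytocin receptor Oxtr (0.128 ± 0.101 and 0.992 ± 1.32 CPM, log2 fold change 2.84, SE 0.879, adjusted p = 0.396; SD, n = 5 each). Calcrl is known from endothelial cells as well, and the mean log2 CPM of 9 endothelial genes was 4.07 to 4.16 in sham and 4.17 to 5.13 in stimulated rats. Its part in the level of Calcrl was not tested.

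Downstream of the receptors, 22 tested genes of G protein subunits, GIRK channels and adenylyl cyclases were split evenly, with 11 higher and 11 lower. Only Gnai1, an inhibitory G protein alpha subunit, had an unadjusted p-value under 0.05, at 108 ± 6.52 CPM in sham against 88.9 ± 14.5 CPM after stimulation (SD, n = 5 each, log2 fold change -0.28, SE 0.107, adjusted p = 0.427). Of 7 tested receptor kinases and arrestins, which end receptor signalling, 0 had an unadjusted p-value under 0.05.

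The remaining marker lists were read for the makeup of the piece, as the mean log2 CPM of a list in each rat. The score of 8 CA3 pyramidal genes was 5.96 to 6.23 in sham and 6.31 to 6.57 in stimulated rats, the groups not overlapping. Of these genes, 5 were higher and 3 lower in log2 fold change. Grik4, which is 1 of them, overlapped between the groups (138 to 160 and 142 to 167 CPM). The score of 8 CA1 and subicular genes was 3.61 to 4.25 and 3.67 to 4.58. Astrocyte genes gave 8.05 to 8.29 and 8.07 to 8.41, and oligodendrocyte genes 7.29 to 7.76 and 6.99 to 7.69. Of 9 astrocyte genes, 4 were higher at an unadjusted p-value under 0.05, beside 6.7% of all features. So were 5 of the 9 endothelial genes and 3 of the 8 CA3 genes. All 10 oligodendrocyte genes had a log2 fold change below 0, with 0 at an unadjusted p-value under 0.05. The endothelial score given above did not overlap between the groups either, though barely (at most 4.16 in sham and at least 4.17 in stimulated rats). Choroid plexus genes gave -0.90 to 0.39 and -0.29 to 1.15, and genes of amygdala and striatum 2.08 to 2.40 and 1.57 to 2.30. The part of these scores in the receptor levels was not tested.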

How the data were processed

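Poly-A mRNA from 5 sham and 5 stimulated rats was sequenced by the authors in short single reads. According to the methods, the authors aligned reads to RN4 with BWA and counted them with their own script on an Ensembl annotation, but the rows carry RefSeq identifiers. The deposited values are raw counts per transcript, not normalised. Use of strand and treatment of shared reads were not given in the sources used here. The row of unaligned reads, from 32.0 to 45.1% of the reads of a library, was set aside.

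Symbols were taken from RefSeq (GRCr8) by identifier, and 54.2% of rows had one. The members and gene lists were chosen with earlier results of these data known. Features with a summed count below the 30th percentile (46 counts) were left out, and the edgeR 4.0.16 quasi-likelihood test (R 4.3.3, default settings) with TMM factors compared the groups over 22447 features, with Benjamini-Hochberg adjustment. CPM used TMM-scaled libraries, and log2 CPM added a prior count of 2. The script was tested on simulated data. Alternatives used DESeq2 1.42.0, limma 3.58.1, other scalings and filters, and the omission of each rat. All members, their ligands and family receptors were named, and up to 3 genes of other lists by lowest unadjusted p-value. Rats were individual animals. The labels gave no batch.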

Additional observations from a re-analysis of the deposited data

Results flagged for a closer look

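For 38 sets of 5 CPM values, the distance from the most extreme rat to the next was divided by the whole range. The limit of 0.71 (Dixon, for 5 samples) was exceeded in 5 sets, and chance exceeds it in about 1 of 20 groups. The low value of Npy1r in sham rat 2, 10.2 CPM, stood apart from 15.4 to 17.4 CPM in the other sham rats. The high value of Npy2r in stimulated rat 9, 17.1 CPM, stood apart from 13.2 to 13.6 CPM in the other stimulated rats. The low value of Sstr4 in sham rat 3, 12.2 CPM, stood apart from 15.0 to 15.6 CPM. Cort in stimulated rat 8, at 0.894 CPM, stood apart from 0 to 0.226 CPM, a difference of few counts. Penk in stimulated rat 10, at 138 CPM, stood apart from 35.6 to 53.5 CPM.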

How the results depend on the processing

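The count of features past the adjusted threshold of 0.05 was 0 in the reported fit and in each alternative other than DESeq2 (33) and the edgeR likelihood ratio test (119). The receptors that had an adjusted p-value were not among them. DESeq2 gave none for Galr1 and Oprk1, and both were below the filter of at least 10 counts in 4 samples. Where fitted, the log2 fold changes of the receptors kept their sign, also in the 10 fits that left out 1 rat.

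The number of receptors with an unadjusted p-value under 0.05 was 1 (Galr1) and became 2 with limma-voom (Npy5r in addition) and 0 with at least 10 counts in 4 samples, where Galr1 and Oprk1 were not tested because their counts were too low. It ranged from 1 to 4 when each rat was left out, while the share of all features ranged from 7.37 to 14%. The number of receptors whose groups did not overlap was 1 and became 0 with library size alone. The log2 fold change of Npy5r ranged from -0.91 (without rat 8) to -0.41 (without rat 9). With each rat left out, that of Npy2r ranged from 0.05 to 0.21, of Sstr1 from -0.32 to -0.08, of Oprd1 from 0.02 to 0.45 and of Oprk1 from -1.40 to -0.42. At an unadjusted p-value under 0.05, 68.0% of features were higher, beside 78.3% with library size alone, 59.5% with upper quartile factors and 53.9% with limma-voom. No paired analysis was possible because each rat has a number of its own. Depth limits Galr1, Oprk1 and Oprd1, which had at most 41 counts in a rat. All p-values measure the spread between these animals.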
